A study of Rattus norvegicus with 30 samples.

Results

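The transcription factors of the nephron segments *Hnf4a*, *Pax2*, *Pax8*, *Tfap2b*, *Tfcp2l1*, *Gata3*, *Esrrb* and *Esrrg* were followed through the cortex (Cx) and outer medulla (OM) of the rat kidney. They were chosen by symbol and made up 8 of the 32545 genes in the deposited table, and all 8 passed the filter on low counts in each of the 9 comparisons. Sprague-Dawley (SD) rats ate 0.4% NaCl (LS) throughout, or were switched to 4.0% NaCl for 14 d (HS14) or 21 d (HS21). The right kidneys of 5 rats per group were dissected into Cx and OM, which gave 6 groups of 5 poly(A) mRNAseq libraries and 30 libraries in all. The methods give male rats for the whole study. They describe implants on the left renal vessels, and whether each sequenced rat, LS rats included, carried them is not given in the sources used here. The methods state an age, a heparin infusion and blood sampling for the implanted rats, and whether these hold for each sequenced rat is not given either.

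A nephron is a chain of segments, each with its own set of transcription factors that keep its transporters and enzymes switched on. Hepatocyte nuclear factor 4 alpha (*Hnf4a*), a nuclear receptor, drives the proximal tubule programme. The paired-box factors *Pax2* and *Pax8* build the nephron in the embryo and stay on in adult tubules. Activating protein 2 beta (*Tfap2b*) belongs to the distal tubule, the estrogen-related receptors *Esrrb* and *Esrrg* are orphan nuclear receptors tied to mitochondrial energy genes, and *Tfcp2l1* and *Gata3* are known from the distal nephron and the collecting duct. *Gata3* is also a master regulator of T cells.

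The libraries held 5408126 to 21842843 counts. The smallest was OM HS14 replicate 10, and the next smallest held 12748841. The tissue labels were checked on marker genes. The thick ascending limb (TAL), the segment that carries *Umod* and *Slc12a1*, runs through both OM and Cx. The summed level of 9 TAL markers lay between 2399 and 2843 CPM (counts scaled to a common library size) in Cx LS and between 11319 and 24010 CPM in OM LS. The sum of 16 proximal tubule markers was 45887 to 51160 CPM in Cx LS and 2353 to 31489 CPM in OM LS. Replicate 2 of OM LS stood apart on the cortical side, with the highest proximal tubule sum and the lowest TAL sum of its group. Replicate 5 of OM LS stood at the other end, with 2353 and 24010 CPM. Replicate 10 of Cx HS14 had the lowest proximal tubule sum of its group (34380 CPM, against 43410 to 47642 CPM in the other 4) and the highest TAL sum (4527 against 2449 to 2815 CPM). Calls of the 8 factors that change without one of these libraries are given in both forms, and so are the *Hnf4a* ratios in the OM. In whole tissue, fewer cells of a type and less mRNA per cell cannot be told apart.

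In the rat genome build Rnor_6.0 used by the table, *Hnf4a* lies at chr3:159902441-159965003, *Pax2* at chr1:264504591-264583329 and *Pax8* on the minus strand at chr3:1527279-1584946. *Tfap2b* lies at chr9:25410669-25440411, *Tfcp2l1* at chr13:34610689-34670124 and *Gata3* at chr17:72429618-72450681. *Esrrb* lies at chr6:110410141-110455906 and *Esrrg* at chr13:106463368-106683436. All are protein-coding genes, and counts cover their exons.

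Promoter sequences of 7 of the 8 genes were matched by symbol in RefSeq (build GRCr8, a later build than that of the counts), each running from 250 bases before to 50 after an annotated start. The promoters of the 3 genes whose level changed in the Cx at HS21 are shown, and *Hnf4a* has a pair of them. Capitals mark a pair of motifs, read on both strands. GCCNNNGGC is the motif of the AP-2 factors. The letters AGATAA are bound by factors of the GATA family.
*Hnf4a* first promoter (chr3:172605970-172606269, plus strand): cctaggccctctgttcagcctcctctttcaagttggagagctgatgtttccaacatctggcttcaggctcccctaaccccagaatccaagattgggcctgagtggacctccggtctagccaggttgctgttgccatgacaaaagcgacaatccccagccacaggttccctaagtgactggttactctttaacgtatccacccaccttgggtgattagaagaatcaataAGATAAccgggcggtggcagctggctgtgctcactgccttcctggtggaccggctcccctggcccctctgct
*Hnf4a* second promoter (chr3:172641586-172641885, plus strand): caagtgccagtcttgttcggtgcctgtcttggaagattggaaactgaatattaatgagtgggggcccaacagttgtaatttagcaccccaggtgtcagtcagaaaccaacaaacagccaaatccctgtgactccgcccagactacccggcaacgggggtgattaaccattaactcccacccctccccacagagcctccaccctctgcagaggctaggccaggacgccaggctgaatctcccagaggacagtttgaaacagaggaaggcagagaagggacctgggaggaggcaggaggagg
*Gata3* promoter (chr17:73553298-73553597, plus strand): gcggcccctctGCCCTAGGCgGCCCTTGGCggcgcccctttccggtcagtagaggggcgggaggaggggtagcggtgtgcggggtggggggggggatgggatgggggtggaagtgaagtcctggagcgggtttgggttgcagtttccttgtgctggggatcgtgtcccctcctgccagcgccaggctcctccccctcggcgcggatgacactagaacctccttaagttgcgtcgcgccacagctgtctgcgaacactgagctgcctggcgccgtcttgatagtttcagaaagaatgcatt
*Esrrb* promoter (chr6:111738412-111738711, plus strand): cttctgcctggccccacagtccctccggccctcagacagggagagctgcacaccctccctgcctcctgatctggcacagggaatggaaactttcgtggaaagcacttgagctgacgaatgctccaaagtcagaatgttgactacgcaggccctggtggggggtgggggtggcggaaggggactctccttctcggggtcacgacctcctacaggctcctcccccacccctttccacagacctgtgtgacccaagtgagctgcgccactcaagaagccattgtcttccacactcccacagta
The first *Hnf4a* promoter held AGATAA at base -22, counted from the start, and the second held none of the motifs. The *Gata3* promoter held GCCNNNGGC at -239 and -229, and the *Esrrb* promoter held none. Of 33469 promoters of this length, 11.6% held AGATAA and 15.1% held GCCNNNGGC. CAAAGTCCA, an HNF4 core, stood in 0.391% of all promoters and in no promoter of these genes, and TCAAGGTCA, the full site of the estrogen-related receptors, in 0.433% and in none of these. Among the genes not shown, *Pax8* held GCCNNNGGC at 23 and the second of 4 *Esrrg* promoters held it at -191 and -87. A match describes the letters in the window and does not show a bound site.

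Compared with each other per kilobase of gene length, the 8 factors spanned a wide range in Cx LS. *Hnf4a* stood highest at 249.8 ± 12.1 CPM per kb (SD, *n* = 5, as for all groups), followed by *Tfcp2l1* at 123 ± 10.9. *Pax8* (34.0 ± 1.84), *Esrrg* (18.3 ± 1.39), *Pax2* (14.0 ± 1.06), *Gata3* (9.43 ± 0.515), *Tfap2b* (6.78 ± 0.346) and *Esrrb* (5.61 ± 0.843 CPM per kb) came next. Only the last pair overlapped, since *Tfap2b* ran from 6.27 to 7.13 and *Esrrb* from 4.63 to 6.75 CPM per kb, and every other neighbour in this order was separated in all 5 libraries. In OM LS the order began in the same way with *Hnf4a* (102 ± 71.2), *Tfcp2l1* (72.0 ± 12.3) and *Pax8* (63.6 ± 8.75 CPM per kb), and each neighbour overlapped the next. *Esrrg* (36.0 ± 11.6), *Pax2* (33.4 ± 7.84), *Esrrb* (29.0 ± 12.2) and *Tfap2b* (22.5 ± 6.55) followed closely, and *Gata3* was last at 9.39 ± 2.98 CPM per kb. The exon length in the table is only 1302 bases for *Esrrb* and 1622 for *Pax2*, against 2555 to 7376 for the other 6, so that their levels per kb rest on short gene models.

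**Figure D1:**
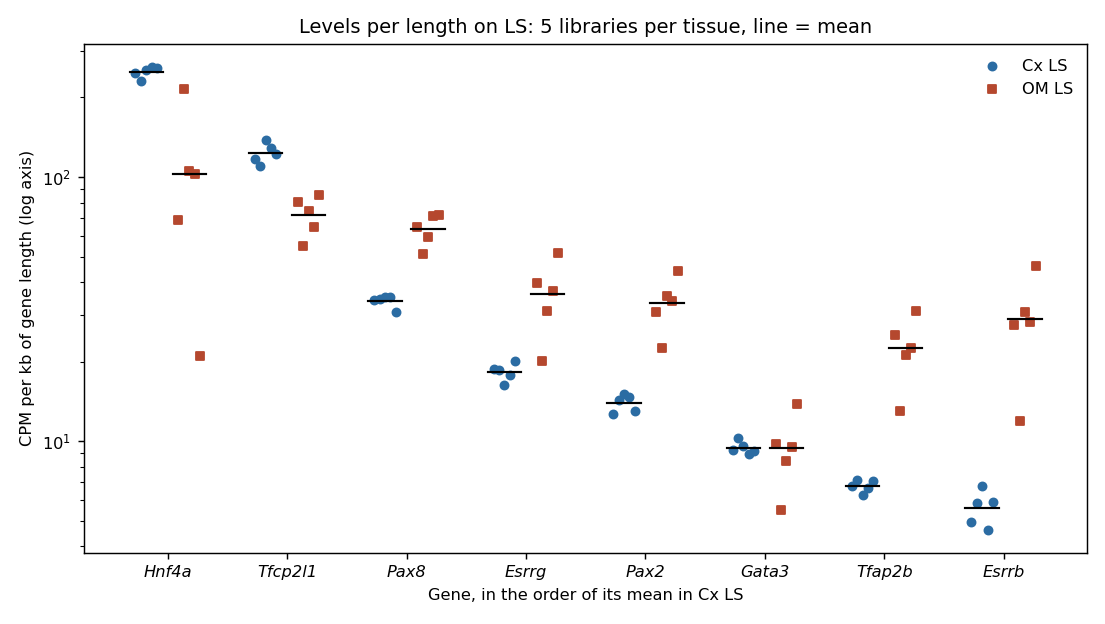
Level of the 8 factors per kilobase of gene length on LS, on a log axis in CPM per kb. Each point is a library (circles, Cx LS; squares, OM LS; *n* = 5 each) and each line a group mean; *Hnf4a* and *Tfcp2l1* are highest in both tissues, and *Esrrb* goes from last in Cx LS to a place among *Pax2* and *Tfap2b* in OM LS.

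The pairs of related genes differed in how unequal they were. *Pax8* per kb was 2.43 ± 0.147 times *Pax2* in Cx LS and 1.95 ± 0.283 times in OM LS. *Esrrg* per kb was 3.33 ± 0.582 times *Esrrb* in Cx LS (2.41 to 3.85) and 1.32 ± 0.269 times in OM LS (1.01 to 1.70), so that these ranges did not overlap. In Cx HS21 the ratio of *Esrrg* to *Esrrb* was 2.23 ± 0.333 (1.90 to 2.67).

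The comparison of OM with Cx on LS asked in which dissected tissue the mRNA of each factor stood higher. *Esrrb* mRNA was 5.13-fold higher in the OM, and *Tfap2b*, *Pax2*, *Esrrg* and *Pax8* were also higher there, whereas *Hnf4a* and *Tfcp2l1* were lower. Of the 8 members 7 were called by edgeR's quasi-likelihood test at an adjusted *P* under 0.05, 5 raised and 2 lowered. In this comparison 40.9% of 14295 tested genes were called, 21.3% raised and 19.5% lowered, so a call alone sets no gene apart. The groups did not overlap for the same 7 members, as for 29% of all tested genes. With total counts in place of TMM scaling the median log2 ratio of all tested genes was 0.27 in place of 0.029, and the calls split into 5546 raised and 1842 lowered genes, against 3051 and 2794. The same 7 members were called in the same directions with that scaling. The fit was unpaired, although Cx and OM may come from the same rats. With the replicate number as a block 7 members were called too, 5 raised and 2 lowered. Without OM LS replicate 2, and likewise without replicate 5, 7 members were called. When the intron share of the mapped bases entered the fit as a covariate none was called, and that share did not overlap between the groups, so the covariate and the tissue can hardly be told apart.

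*Esrrb* read 6.43, 7.61, 8.79, 6.03 and 7.63 CPM in replicates 1 to 5 of Cx LS. It read 36.0, 15.5, 40.0, 36.9 and 60.1 CPM in OM LS, and replicate 2, the library nearest to cortex, was lowest. The log2 ratio of OM to Cx was 2.36 (SE 0.296, adjusted *P* = 0.00016), and 5.09% of tested genes differed by more in either direction. This share was larger for the other members called, at up to 24.4% for *Tfcp2l1*. *Esrrg* stood at 86.9 to 107 CPM in Cx LS and at 108 to 276 CPM in OM LS, and the lowest OM library, again replicate 2, lay just above the highest Cx library. Its log2 ratio was 0.97 (SE 0.201, adjusted *P* = 0.00339).

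*Tfap2b* was tight in Cx LS, with 39.0, 40.9, 36.0, 38.3 and 40.6 CPM, and read 144, 74.6, 121, 129 and 178 CPM in OM LS. The log2 ratio was 1.72 (SE 0.186, adjusted *P* = 6.35e-05), or 3.30-fold. *Pax2* stood at 20.6 to 24.5 CPM in Cx LS and 36.5 to 71.7 CPM in OM LS, and its log2 ratio was 1.25 (SE 0.15, adjusted *P* = 0.000124). *Pax8* stood at 78.6 to 89.9 CPM in Cx LS and 130.2 to 184 CPM in OM LS, and its log2 ratio was 0.90 (SE 0.0968, adjusted *P* = 6.3e-05). None of these groups overlapped.

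*Hnf4a* read 1167, 1085, 1198, 1229 and 1215 CPM in Cx LS. In OM LS it spread widely, with 325, 1012, 497, 485 and 98.9 CPM in replicates 1 to 5, and replicates 2 and 5 were the highest and lowest here as they were for the proximal tubule sum. The log2 ratio was -1.29 (SE 0.458, adjusted *P* = 0.0448). The call was close to the threshold and was lost without any of the 5 Cx LS libraries or without OM LS replicate 1, 3 or 4, at adjusted *P* values from 0.0648 to 0.0992. It was kept without replicate 2 (log2 -1.76, adjusted *P* = 0.00356) or replicate 5 (log2 -1.02, adjusted *P* = 0.0153) of OM LS.

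*Tfcp2l1*, known from the collecting duct, was lower in the OM. It read 863, 810, 1018, 953 and 904 CPM in Cx LS and 593, 405, 547, 478 and 633 CPM in OM LS, so the Cx was higher in every library (log2 ratio -0.78, SE 0.127, adjusted *P* = 0.000772). *Gata3* did not pass the test between the tissues. It stood at 23.7 to 27.3 CPM in Cx LS and 14.6 to 36.7 CPM in OM LS, and its log2 ratio of -0.013 had a 95% interval of -0.43 to 0.41.

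Other regulators of the same segments were taken from lists written from general knowledge, with earlier results of these data known. Of 5 reported proximal tubule regulators, 4 were lower in OM LS and none higher: *Maf* (log2 -3.74), *Ppara* (-2.23), *Nr1h4* (-1.65) and *Cebpa* (-1.22), while *Hnf4g* at -0.44 did not pass. Of 7 regulators of the loop and distal tubule, 6 were higher and none lower, with a list median of 2.02, against 0.029 over all tested genes. They were led by *Sim2* (4.88), *Irx1* (3.70) and *Irx2* (3.64), homeobox and PAS factors of the loop of Henle. Of 8 collecting duct regulators, 7 were higher and none lower (list median 1.79), among them *Ehf* (2.84) and *Elf5* (2.69), epithelial ETS factors. *Foxi1*, the intercalated cell factor, was at a log2 ratio of -0.017 and was not called. In the list of regulators of several segments, 1 of 5 was lower (*Lhx1*, -1.64) and none higher. Of 4 podocyte regulators 2 were lower (*Wt1* -2.92 and *Foxc2* -1.49), and 2 of 7 energy metabolism partners of the estrogen-related receptors were higher (*Perm1* 1.02 and *Ppargc1b* 0.47).

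The markers of the segments moved alongside. In OM LS 7 of 9 TAL markers were higher and none lower, and 11 of 16 proximal tubule markers were lower. The 2 proximal markers that were higher were *Slc22a7* (log2 6.50) and *Slc7a13* (5.89), transporters of the straight part of the proximal tubule. Of 7 tested markers of the distal convoluted and connecting tubule 6 were lower, of 7 principal cell markers 3 were higher, and of 7 intercalated cell markers 2 were higher and 3 lower. How far the share of each segment in the dissected tissue entered the differences of the 8 factors was not tested.

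**Figure D2:**
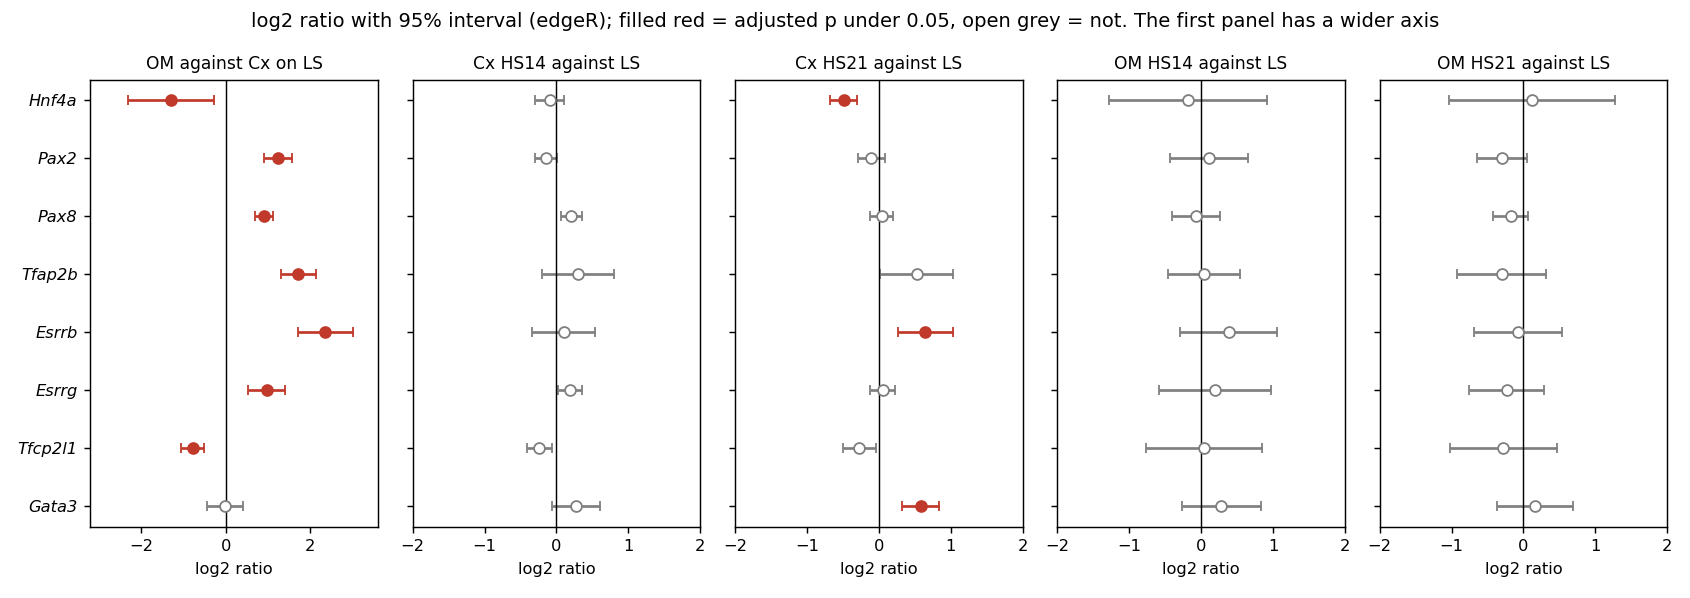
log2 ratio of each factor with its 95% interval from edgeR in 5 comparisons; filled red points passed an adjusted *P* under 0.05 and open grey points did not. 7 factors are filled in OM against Cx on LS, *Hnf4a*, *Esrrb* and *Gata3* in Cx HS21, and none in Cx HS14, OM HS14 or OM HS21.

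In the Cx, 21 d of the HS diet was accompanied by less *Hnf4a* and more *Gata3* and *Esrrb* mRNA. These 3 of 8 members were called, 2 raised and 1 lowered, in a comparison in which 39.4% of 14299 tested genes were called, 18.9% raised and 20.5% lowered. The share of members called was thus near that of all genes. With total counts the median log2 ratio of all tested genes was 0.13 in place of 0.0046, and the split was 4401 raised and 1653 lowered genes, against 2702 and 2936 with TMM. *Hnf4a*, *Gata3* and *Esrrb* kept their direction and call under that scaling, and *Tfap2b* was called as well. With the intron share in the fit no member was called, and that share did not overlap between Cx LS and Cx HS21 either.

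*Hnf4a* read 708, 725, 954, 935 and 882 CPM in replicates 11 to 15 of Cx HS21, all below the lowest Cx LS library (1085 CPM). The log2 ratio to LS was -0.49 (SE 0.0883, adjusted *P* = 0.00126), which is 0.712 of the LS level. In either direction 25.1% of tested genes differed by more. The adjusted *P* stayed at or below 0.00426 without any library of the 2 groups.

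*Gata3* read 24.6, 27.3, 25.5, 23.7 and 24.4 CPM in Cx LS and 41.1, 44.9, 41.7, 31.1 and 29.4 CPM in Cx HS21. Every HS21 library lay above every LS library, and replicates 14 and 15 rose least. The log2 ratio was 0.58 (SE 0.117, adjusted *P* = 0.00238), and 20.1% of tested genes differed by more in either direction. *Hnf4a* and *Gata3* were the 2 members whose groups did not overlap, as for 26.6% of all tested genes.

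*Esrrb* read 10.1, 14.9, 13.5, 8.05 and 10.5 CPM in Cx HS21, and its lowest library, replicate 14, lay below the highest LS library (8.79 CPM). Its log2 ratio was 0.64 (SE 0.175, adjusted *P* = 0.0125), or 1.56-fold, and 17.3% of tested genes differed by more in either direction. *Esrrg*, its paralog, stood at 87.9 to 116 CPM in Cx HS21 against 86.9 to 107 CPM on LS. Its log2 ratio was 0.054, with a 95% interval of -0.12 to 0.23, and it was not called.

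*Tfap2b* spread widely at HS21, with 65.7, 83.1, 64.1, 41.2 and 27.7 CPM, and replicate 15 lay below the whole LS group. The log2 ratio of 0.53 (SE 0.232) had an adjusted *P* of 0.0898 and a 95% interval of 0.02 to 1.04. Without replicate 15 it was 0.71 at an adjusted *P* of 0.00458. *Tfcp2l1* read 796, 931, 761, 603 and 686 CPM at HS21, against 810 to 1018 CPM on LS. Its log2 ratio was -0.27 (SE 0.106, adjusted *P* = 0.0622), and without replicate 12, the highest HS21 library, it was -0.34 at an adjusted *P* of 0.0116. With all libraries DESeq2 called both *Tfap2b* (adjusted *P* = 0.0413) and *Tfcp2l1* (adjusted *P* = 0.0389). *Pax2* (log2 -0.10, 95% interval -0.30 to 0.09) and *Pax8* (0.038, -0.12 to 0.20) were not called.

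**Figure D3:**
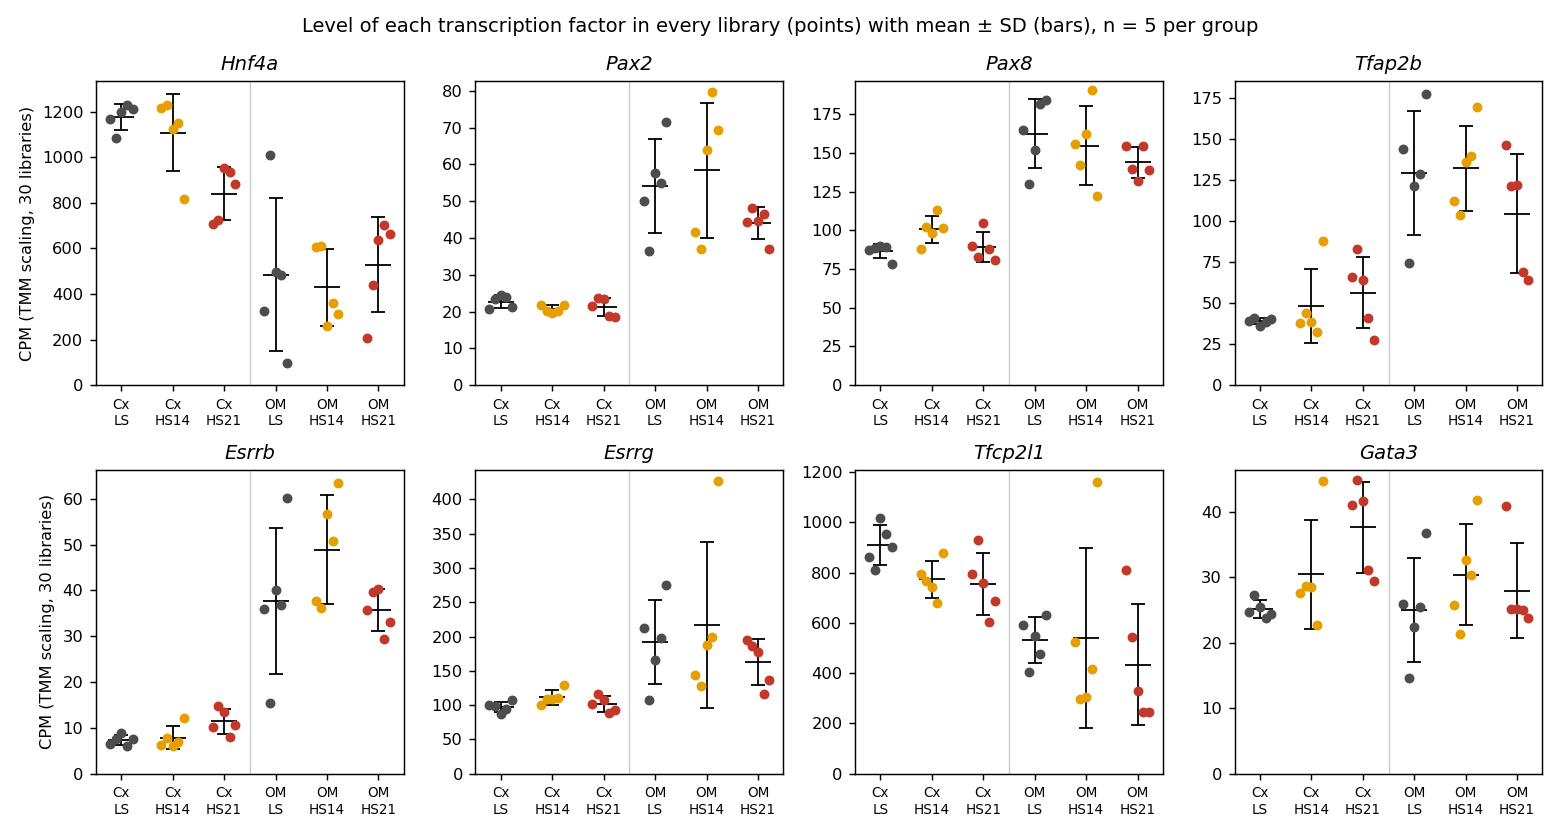
CPM of the 8 factors in each of the 30 libraries (points), with mean ± SD for each group of 5 (bars), from an axis that starts at 0. *Hnf4a* in Cx HS21 lies below all Cx LS libraries and *Gata3* above them, and replicate 10 of Cx HS14 stands with the HS21 libraries for *Hnf4a*, *Tfap2b*, *Gata3* and *Esrrb*.

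Other regulators of these segments moved in both directions in Cx HS21. All 5 reported proximal tubule regulators were lower, with a list median of -0.94 against 0.0046 over all tested genes: *Ppara* (log2 -1.08), *Hnf4g* (-0.99), *Maf* (-0.94), *Nr1h4* (-0.72) and *Cebpa* (-0.28). Of the 7 tested of 8 collecting duct regulators, 6 were higher and none lower (list median 0.73). They were *Nr3c2* (0.79), the mineralocorticoid receptor, *Grhl2* (0.77), *Ehf* (0.76), *Elf3* (0.73), *Dmrt2* (0.72) and *Foxi1* (0.64), and *Hoxb7* at 0.21 was not called. Of 7 loop and distal tubule regulators, 3 were higher and none lower: *Tfap2a* (0.97), a paralog of *Tfap2b*, *Mecom* (0.65) and *Irx1* (0.59). Among the regulators of several segments *Kctd1* was higher (0.40) and *Sall1* lower (-0.28), and 3 of 5 did not pass. *Wt1* (0.40), 1 of 4 podocyte regulators, was higher. Of the 7 energy metabolism partners, which include *Ppargc1a* and *Esrra*, only *Ppargc1b* was called and it was lower (-0.45).

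**Figure D4:**
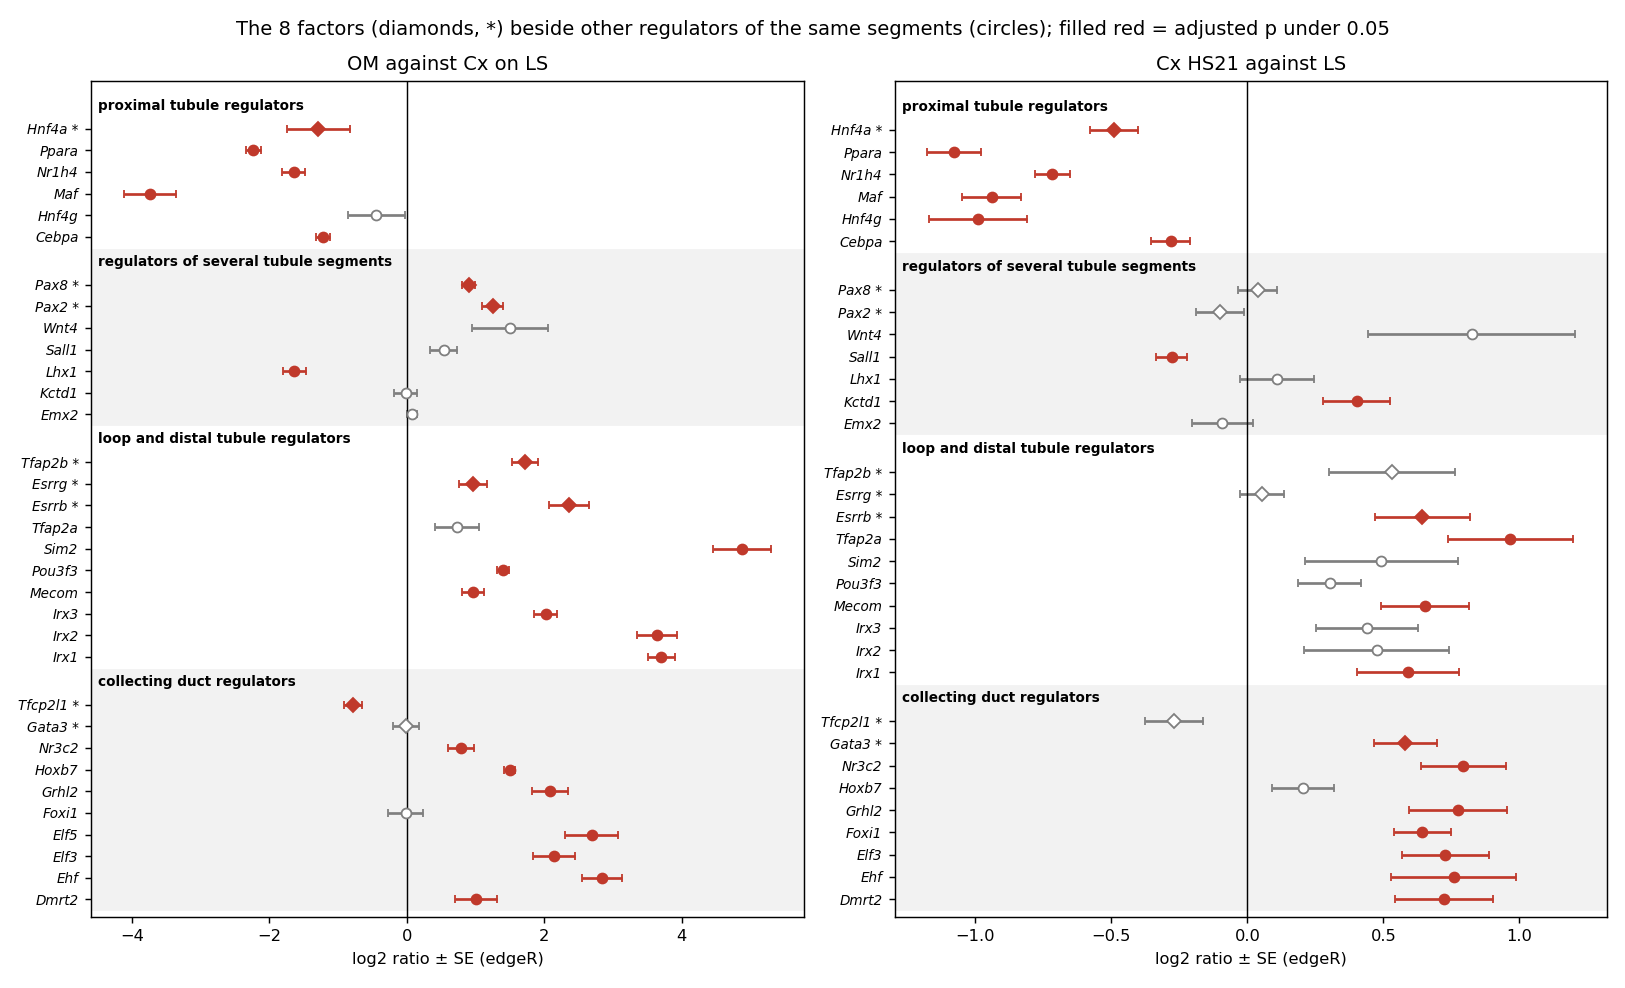
log2 ratio ± SE (edgeR) of the 8 factors (diamonds, marked with an asterisk) and of other regulators of the same segments (circles), for OM against Cx on LS and for Cx HS21 against LS; filled red symbols passed an adjusted *P* under 0.05. At HS21 the 5 proximal tubule regulators and *Hnf4a* lie below 0, whereas *Tfcp2l1* lies on the other side of 0 from the 7 collecting duct regulators tested there.

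Segment markers moved in the same libraries. The sum of proximal tubule markers fell from 45887 to 51160 CPM in Cx LS to 26935 to 33696 CPM in Cx HS21, and 13 of its 16 genes were lower and 1 higher, led by the endocytic receptors *Lrp2* (log2 -0.99) and *Cubn* (-0.96). The TAL sum was 3459 to 4603 CPM at HS21 (4 of 9 genes higher, *Cldn10* lower). The sum of distal convoluted and connecting tubule markers went from 1580 to 2060 CPM to 2396 to 5029 CPM (7 of 7 tested genes higher). Principal cell markers went from 680 to 749 CPM to 986 to 1640 CPM (6 of 7 higher) and intercalated cell markers from 1020 to 1282 CPM to 1434 to 2364 CPM (7 of 7 higher). Of 5 podocyte markers 4, of 6 endothelial markers 2 were higher, and 1 of 5 mesangial and pericyte markers (*Rgs5*) was lower. All these ranges of summed proximal tubule, TAL, distal convoluted, principal and intercalated cell markers were free of overlap between Cx LS and Cx HS21. Their part in the changes of the 8 factors was not tested.

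Leukocyte genes moved too. The sum of 6 T cell markers was 3.47 to 6.32 CPM in Cx LS and 9.67 to 69.4 CPM in Cx HS21, and that of 6 general leukocyte markers 77.2 to 104 CPM and 167 to 559 CPM. All 4 tested T cell markers and all 5 tested leukocyte markers were called higher. In replicates 11 to 15 of Cx HS21 the T cell sum was 33.5, 20.1, 9.67, 44.2 and 69.4 CPM, beside the *Gata3* levels given above. The part of T cells in the rise of *Gata3* was not tested. Urothelium markers, a check for pelvis in the dissection, summed to at most 4.65 CPM in any library, with up to 5 of the 5 genes at 0 in a library.

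Each factor was also set beside the markers of its segment, as CPM per 1000 CPM of summed markers, a measure chosen after the values were seen and given without a test. *Hnf4a* stood at 24.0 ± 1.13 per 1000 CPM of proximal tubule markers in Cx LS and at 29.1 ± 3.17 in Cx HS21, so that the markers fell by more than the factor. *Esrrb* was 2.77 ± 0.463 per 1000 CPM of TAL markers in Cx LS, 2.79 ± 0.476 in Cx HS21 and 1.97 ± 0.426 in OM LS. *Gata3* was 35.1 ± 1.54 per 1000 CPM of principal cell markers in Cx LS, 30.5 ± 2.27 in Cx HS21 and 19.1 ± 3.75 in OM LS. *Tfcp2l1* was not called by edgeR at HS14 or HS21 with all libraries. It stood at 488 ± 55.8 per 1000 CPM of principal and intercalated cell markers in Cx LS, 333 ± 64.9 in Cx HS14 and 243 ± 12.2 in Cx HS21. In OM LS the *Tfcp2l1* ratio was 210 ± 56.3. The lowest Cx LS ratio of *Tfcp2l1* (404) lay above its highest Cx HS21 ratio (262), while the marker sums of both cell types were higher in Cx HS21. Such separation was not particular to *Tfcp2l1*. Ratios in Cx LS and Cx HS21 were also apart for *Hnf4a* (22.3 to 25.4 and 26.3 to 33.8) and *Esrrg* (32.8 to 41.2 and 23.2 to 26.9). They were narrowly apart for *Gata3* (33.8 to 37.7 and 27.4 to 33.7), and overlapped for *Esrrb* and *Tfap2b*.

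*Esrrg* stood at 36.9 ± 3.04 per 1000 CPM of TAL markers in Cx LS and 25.0 ± 1.65 in Cx HS21, and at only 10.3 ± 0.935 in OM LS. *Tfap2b* per 1000 CPM of TAL, distal convoluted and connecting tubule markers was 8.76 ± 0.768 in Cx LS, 7.56 ± 1.83 in Cx HS21 and 6.88 ± 0.439 in OM LS. *Hnf4a* per 1000 CPM of proximal tubule markers was higher in OM LS (37.0 ± 4.04) than in any Cx LS library (22.3 to 25.4). Across the 5 OM LS libraries this ratio ran from 32.1 to 42.0 while *Hnf4a* itself ran from 98.9 to 1012 CPM.

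**Figure D5:**
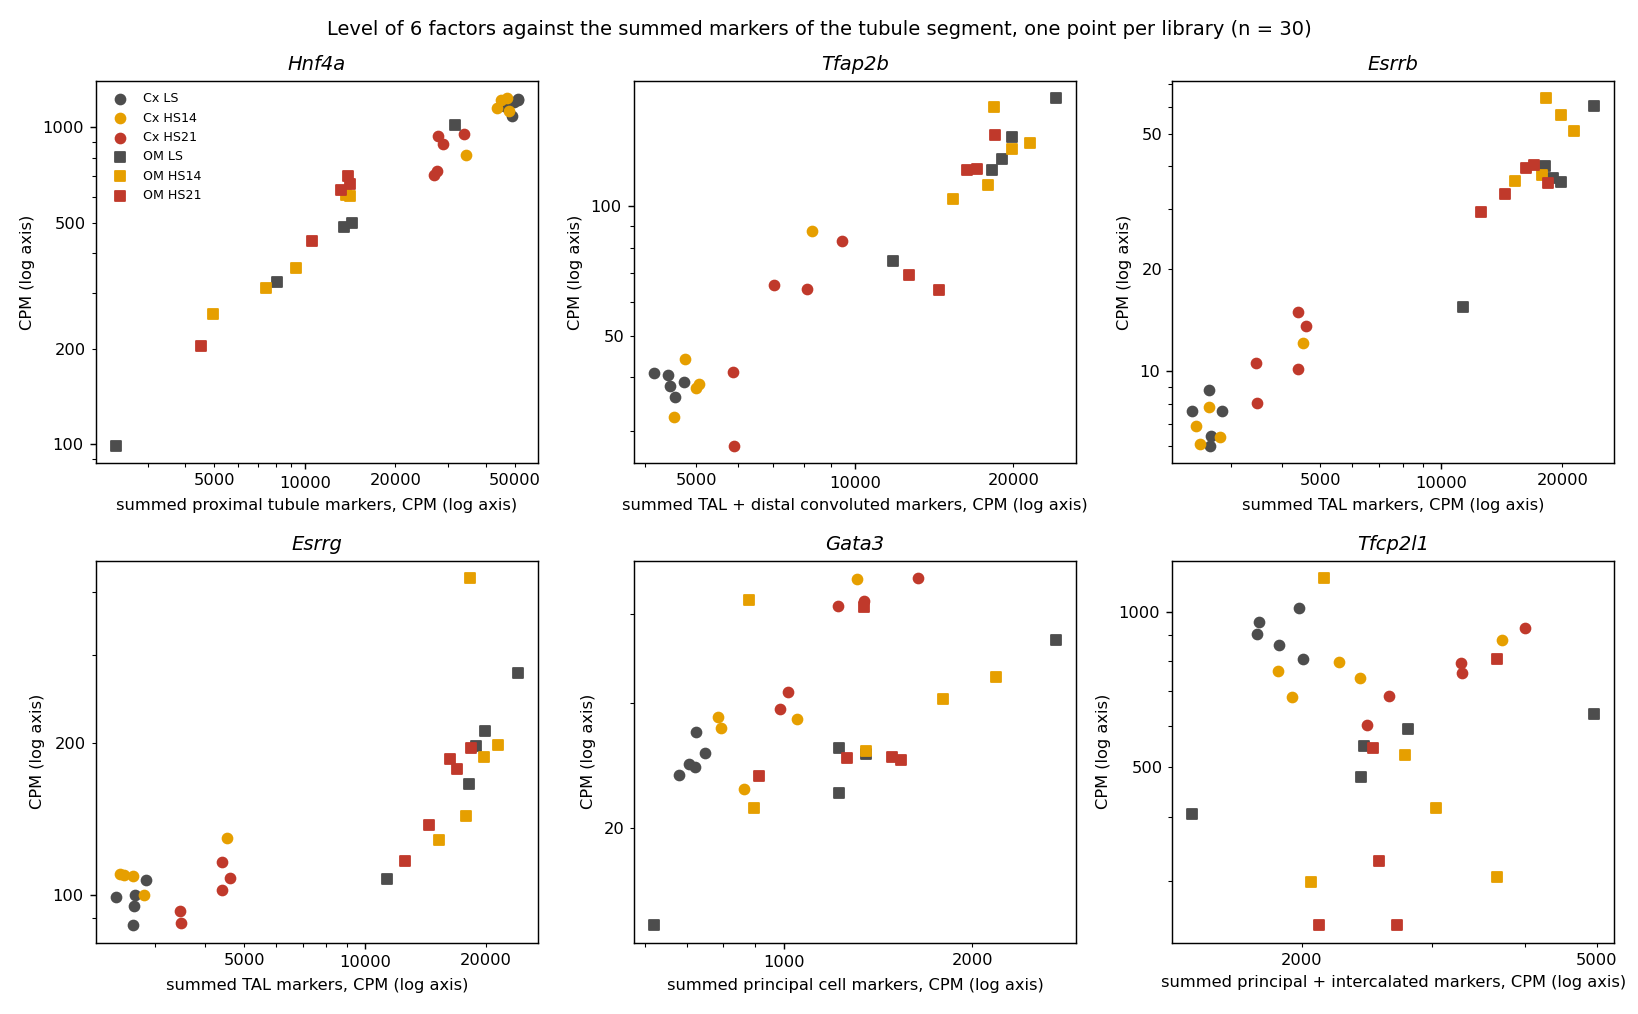
CPM of 6 factors against the summed CPM of markers of the segment each is known for, 1 point per library, both axes on a log scale (circles, Cx; squares, OM; colours, diet). *Hnf4a* rises with the proximal tubule sum and *Esrrb* with the TAL sum, whereas *Tfcp2l1* shows no such order with the principal and intercalated cell sum. *Hnf4a* per 1000 CPM of proximal tubule markers runs from 22.3 to 25.4 in Cx LS and from 32.1 to 42.0 in OM LS.

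At HS14 none of the 8 members was called in the Cx by edgeR or DESeq2, where 2.33% of 14181 genes were called. An unadjusted *P* under 0.05 was met by 1284 raised and 1178 lowered genes of the 14181, and by 3 of the members. These were *Pax8* (log2 0.21, SE 0.0676, adjusted *P* = 0.133), *Tfcp2l1* (-0.24, SE 0.0804, adjusted *P* = 0.143) and *Esrrg* (0.19, SE 0.0786, adjusted *P* = 0.245). No member was free of overlap, against 5.07% of all tested genes. *Hnf4a* read 1216, 1231, 1126, 1152 and 819 CPM in replicates 6 to 10 of Cx HS14, and *Tfap2b* 37.9, 44.2, 38.6, 32.3 and 87.7 CPM. Replicate 10, the library with fewest proximal tubule markers, was the lowest of its group for *Hnf4a* and the highest for *Tfap2b*, *Gata3* (44.7 CPM) and *Esrrb* (12.1 CPM). Without it the log2 ratio of *Tfap2b* at HS14 was -0.041 in place of 0.30 and that of *Gata3* 0.084 in place of 0.27, and *Tfcp2l1* was called (log2 -0.30, adjusted *P* = 0.0428). Of the regulators in all 6 lists only *Cebpa* was called at HS14 (log2 -0.37, adjusted *P* = 0.0463).

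Between HS14 and HS21 in the Cx no member was called, among 16.2% of genes called, and *Hnf4a* came nearest (log2 -0.39, SE 0.124, adjusted *P* = 0.052). *Hnf4a* and *Esrrb* (log2 0.54, adjusted *P* = 0.113) had an unadjusted *P* under 0.05, and DESeq2 called *Hnf4a*. An unadjusted *P* under 0.05 was also met by 2257 raised and 2573 lowered genes of 14395 tested. The edgeR calls changed with single libraries. Without replicate 10 of Cx HS14, *Hnf4a* (log2 -0.49, adjusted *P* = 0.00694), *Gata3* (0.48, 0.0301) and *Esrrb* (0.75, 0.0168) were called. Without replicate 13 of Cx HS21, *Hnf4a* alone was called (log2 -0.44, adjusted *P* = 0.0384).

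In the OM no member was called by edgeR or DESeq2 at HS14 or at HS21, against 0.00694% and 0.769% of tested genes with edgeR, and none had an unadjusted *P* under 0.05. Of all tested genes 617 raised and 209 lowered had one at HS14, and 1012 raised and 625 lowered at HS21. The number of members called by edgeR was also 0 without OM LS replicate 2, without OM LS replicate 5 and without OM HS14 replicate 10. Without OM LS replicate 2, 2 members had an unadjusted *P* under 0.05 in edgeR at HS21. These were *Pax2* (log2 -0.41, unadjusted *P* = 0.00487, adjusted *P* = 0.131) and *Pax8* (-0.25, 0.0203 and 0.252). No member was free of overlap with OM LS, against 1.53% of genes at HS14 and 3.48% at HS21. *Hnf4a* ran from 258 to 611 CPM at HS14 and from 204 to 701 CPM at HS21, within the range on LS. Its log2 ratio at HS21 was 0.12, with a 95% interval of -1.03 to 1.28, so a change of the size seen in the Cx lay inside it. The ratio was 0.57 without OM LS replicate 2 and -0.14 without replicate 5. At HS14 it was -0.18, and 0.27 and -0.44 without these libraries. At HS21 the 95% interval of *Pax8* was narrower than that of *Hnf4a*, -0.42 to 0.07, and that of *Pax2* was -0.64 to 0.05. *Esrrb* read 37.7, 36.1, 56.6, 50.8 and 63.4 CPM at HS14 and 35.7, 39.7, 40.4, 29.4 and 33.1 CPM at HS21.

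*Tfcp2l1* was uneven among the HS libraries of the OM, with 526, 299, 306, 416 and 1161 CPM at HS14 and 809, 543, 328, 246 and 246 CPM at HS21. Replicate 10 of OM HS14 also had 426 CPM of *Esrrg*, against 129 to 199 CPM in the other 4, and was the library with the fewest counts. In the study's mapping statistics this library also had the highest share of bases in introns and the lowest share of mapped reads of all libraries. Without it, the log2 ratio of OM HS14 to LS went from 0.038 to -0.46 for *Tfcp2l1* and from 0.19 to -0.22 for *Esrrg*, and neither was called (adjusted *P* = 0.4999 and 0.824). *Gata3* in OM HS21 read 40.9, 25.1, 25.1, 25.0 and 23.7 CPM, and only replicate 11 left the range of the others.

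In OM HS21, 3 of 5 tested leukocyte markers and 1 of 5 tested T cell markers were higher than on LS. No tested marker of the proximal tubule, TAL, distal convoluted tubule or collecting duct was called in OM HS21. Between HS14 and HS21 in the OM no member and 0% of genes were called by edgeR. *Esrrb* had an unadjusted *P* under 0.05 (log2 -0.46, adjusted *P* = 0.961), as had 337 raised and 210 lowered genes of 14499 tested. DESeq2 called no member.

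Whether the HS diet acted differently in the 2 tissues was tested as an interaction over 20 libraries. None of the 8 members was called at HS21, by edgeR or DESeq2, among 0.665% of genes called by edgeR, and none at HS14, among 0%. *Tfap2b* (difference of log2 ratios, OM minus Cx, -0.84, SE 0.386, adjusted *P* = 0.301) and *Esrrb* (-0.73, SE 0.345, adjusted *P* = 0.318) had an unadjusted *P* under 0.05 at HS21 and no member had one at HS14. At HS21 1001 genes with a positive and 1366 with a negative difference had one, of 15194 tested. Without replicate 2 of OM LS, *Esrrb* was called at HS21 (-0.90, adjusted *P* = 0.032), and 1275 of all genes were called in place of 101. For *Hnf4a* the difference was 0.62 with a 95% interval of -0.55 to 1.78, and it was 1.10 without OM LS replicate 2 and 0.35 without replicate 5. For *Gata3* it was -0.42 with -0.996 to 0.15. The changes of *Hnf4a* and *Gata3* in the Cx were therefore not shown to differ from those in the OM.

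For each factor the genes most like it across libraries were sought among 13001 protein-coding genes. Likeness was the lower of the Pearson correlations of log2 CPM over the 15 Cx and over the 15 OM libraries, which include the differences between diets, and it is given without a test. *Hnf4a* was most like LOC501233 (0.95) and *Sfxn1* (0.95), a mitochondrial serine carrier. *Gata3* was most like *Spire1* (0.94) and *Muc1* (0.93), a mucin of distal epithelia, and *Tfap2b* most like *Ankrd10* (0.91) and *Prox1* (0.89), a homeobox factor. *Esrrb* was most like *Rtn4rl1* (0.90) and *Scin* (0.90), an actin-severing protein. Likeness was lower for *Pax2* (*Dixdc1*, 0.83, and *Pnmal2*, 0.76), for *Tfcp2l1* (*Ptprf*, 0.80, and *Kdm5b*, 0.78) and for *Esrrg* (*Pura*, 0.79, and *Fam160a1*, 0.78). It was lowest for *Pax8*, with *Pacsin3* at 0.60 and *Nans* at 0.58.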

How the data were processed

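Poly(A) mRNA of 30 libraries was sequenced in pairs of reads without strand information. Per the labels and the methods, the authors aligned clean reads to Ensembl Rnor_6.0 with HISAT2 2.0.5 and counted them per gene with featureCounts 1.5.0-p3; StringTie 1.3.3b is also named. Genes that overlap another on either strand can therefore share reads. The deposited raw counts were used for every value. The authors also deposited FPKM values, the group signal (mean counts after DESeq2 scaling), log2 fold changes and p-values of their own comparisons, and none of these was used. Gene length was taken from the same table. No column held values of other samples (0 columns).

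Groups and replicate numbers were taken from the labels. Each comparison was fitted with edgeR 4.0.16 in R 4.3.3 on its own libraries (filterByExpr with the group, TMM scaling, glmQLFit and glmQLFTest without covariates), and *P* was adjusted by Benjamini and Hochberg over all tested genes and called under 0.05. The interaction was fitted over 20 libraries. SE and 95% intervals came from that fit. CPM used a single TMM scaling over 30 libraries, and log2 CPM a prior count of 2. Marker and regulator lists were written from general knowledge, and some listed regulators are not reported here and were left out of the counts. The members, lists and tests were chosen with earlier results of these data known, so no list is independent evidence, and lists are described by counts and medians only. All 8 members are named in each main comparison; of the listed regulators any called gene could be named, and of each marker list up to 3 called genes with the smallest adjusted *P*. *Hoxb7*, *Hnf4g*, *Foxi1*, *Umod*, *Slc12a1*, *Ppargc1a* and *Esrra* were named in addition after their values were seen. The scripts were tested on simulated counts. Libraries were compared within groups for copies, and in 60 pairs the squared difference was at least 6.72 times counting noise. Alternatives were RLE and total-count scaling, no filter, DESeq2, the share of bases in introns from the study's mapping statistics, the replicate number as a block, and leaving out each library. With 12748841 to 21842843 counts in 29 libraries and 5408126 in the other, even *Esrrb*, the lowest member, had at least 82 counts in a library.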

Additional observations from a re-analysis of the deposited data

Results flagged for a closer look

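In 7 of 48 groups of 5 libraries, the highest or lowest library of a member stood far from the other 4 by Dixon's criterion, which chance meets in about 1 of 20 groups. In Cx HS14 this was replicate 10 for 3 members: *Hnf4a* at 819 CPM (others 1126 to 1231), *Tfap2b* at 87.7 CPM (others 32.3 to 44.2) and *Gata3* at 44.7 CPM (others 22.7 to 28.7). In OM HS14 it was replicate 10 for *Tfcp2l1* at 1161 CPM (others 299 to 526) and *Esrrg* at 426 CPM (others 129 to 199). That library had the fewest counts and, in the study's mapping statistics, the highest intron share and the lowest share of mapped reads. *Gata3* in replicate 11 of OM HS21 stood at 40.9 CPM (others 23.7 to 25.1). *Pax8* in replicate 5 of Cx LS stood at 78.6 CPM (others 87.5 to 89.9), a small difference in a tight group. No cause was tested for any of these.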

How the results depend on the processing

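Of 72 member log2 ratios (8 genes in 9 comparisons) and 1264 alternative values for them, 1148 kept direction and side of the threshold, 19 lost a call, 12 gained a call and 0 called values reversed. In 34 results that were not called, 85 alternative values changed sign. The number of members called changed as follows. With the intron share as covariate it was 0 for OM against Cx on LS (7 in the report) and 0 for Cx HS21 against LS (3 in the report). With DESeq2 it was 5 for Cx HS21 against LS, adding *Tfap2b* (log2 0.54, adjusted *P* = 0.0413) and *Tfcp2l1* (-0.26, 0.0389), and 1 for Cx HS21 against HS14, *Hnf4a* (-0.39, 0.0197). Leaving out each library gave 6 to 7 members for OM against Cx on LS, 0 to 1 for Cx HS14 against LS, 3 to 4 for Cx HS21 against LS, 0 to 3 for Cx HS21 against HS14, 0 to 1 for the interaction at HS21 and 0 for the others. Without the filter *Hnf4a* was not called between OM and Cx on LS (adjusted *P* = 0.051; from 0.0119 to 0.876 over the alternatives that kept all libraries). With total counts *Tfap2b* was called in Cx HS21 (log2 0.66, adjusted *P* = 0.0365).

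The number of all genes called moved by over 1.5 times with DESeq2 in Cx HS14 (921 against 330), OM HS14 (109 against 1), OM HS21 (701 against 112), OM HS21 against HS14 (27 against 0) and the interactions at HS21 (544 against 101) and HS14 (9 against 0). With the intron share it was 905 against 5845 for OM against Cx on LS, 1592 against 5638 for Cx HS21, 18 against 2330 for Cx HS21 against HS14, 15 against 112 for OM HS21 and 2 against 1 for OM HS14. With total counts it was 44 for OM HS21 and 0 for OM HS14, and in Cx HS21 against HS14 the split was 2084 raised and 644 lowered against 935 and 1395. Without the filter it was 58 for the interaction at HS21 and 0 for OM HS14. With 1 library left out it ran from 85 (without Cx LS replicate 4) to 471 (without Cx HS14 replicate 10) in Cx HS14, from 1029 (without Cx HS14 replicate 8) to 3524 (without Cx HS14 replicate 10) in Cx HS21 against HS14, from 9 (without OM LS replicate 3) to 175 (without OM HS21 replicate 13) in OM HS21, and from 42 (without OM LS replicate 1 or 4) to 1275 (without OM LS replicate 2) in the interaction at HS21. The cause was not tested.

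The labels number the libraries 1 to 15 in both tissues without saying that a number marks a rat. Deviations of same-numbered Cx and OM libraries from their group means correlated at -0.071 to 0.44, over 0.1 in 10 of 15 pairs and in 2 of 5 LS pairs, and 13 of 15 Cx libraries correlated best with their own number among the libraries of their diet. Not every pair exceeded 0.1, the criterion used, so the main fits are unpaired. The closeness to the own number is a hint from the data that numbers may mark rats, and the methods have Cx and OM dissected from the same kidneys, so *P* values between tissues may ignore shared rats. With the replicate block 7 members and 5011 genes were called between OM and Cx on LS (5845 without it), 0 members and 94 genes in the interaction at HS21, and 0 members in that at HS14.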
